A study of Arabidopsis thaliana with 2 samples.

Results

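GH3.3 and GH3.5 are acyl acid amido synthetases of the GH3 family of Arabidopsis thaliana, and they are the 2 genes described here, of 13356 genes with a single-gene probe set on the array. They were chosen by name. GH3.3 carries that symbol in the array's annotation, and GH3.5 is listed there as WES1, which the gene table gives as the same gene. Each had 1 probe set, 245076_at for GH3.3 (AT2G23170) and 253908_at for GH3.5 (AT4G27260), both ending in plain _at, and 0 probe sets annotated with several genes listed either. Signals came from 1 array of ros1-1 seedlings and 1 array of C24 wild-type seedlings. The ros1-1 plants are mutant for ROS1, an enzyme of active DNA demethylation that excises methylated cytosine bases, in the C24 background per the series' design text. Wild-type plants were of the C24 accession, and both genotypes were sampled at 15 days as whole seedlings grown on MS medium at 22 °C with 16 h of light and 8 h of darkness. Without replicates no test could be run, and every difference describes these 2 arrays.

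GH3 enzymes join plant hormones to amino acids, using ATP to activate the hormone's carboxyl group. Those of the group that holds GH3.3 and GH3.5 act on the auxin indole-3-acetic acid (IAA), and the resulting conjugates are stored, hydrolysed back to free auxin or degraded, which lowers the active pool. Auxin itself induces several of these genes within a short time through auxin response factors, so their transcripts are widely read as an auxin response as well as a brake on it. GH3.5 also accepts salicylic acid, a defence hormone.

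The signals of GH3.3 and GH3.5 differed in opposite directions between the arrays. GH3.3 had a signal of 277 in ros1-1, against 189 in wild type, and was 1.47-fold higher in the mutant. GH3.5 had a signal of 370 in ros1-1, against 496 in wild type, and was 1.34-fold lower in the mutant. On the log2 scale the ratios of ros1-1 to wild type were 0.55 for GH3.3 and -0.42 for GH3.5. Neither gene reached a 2-fold difference.

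**Figure D1:**
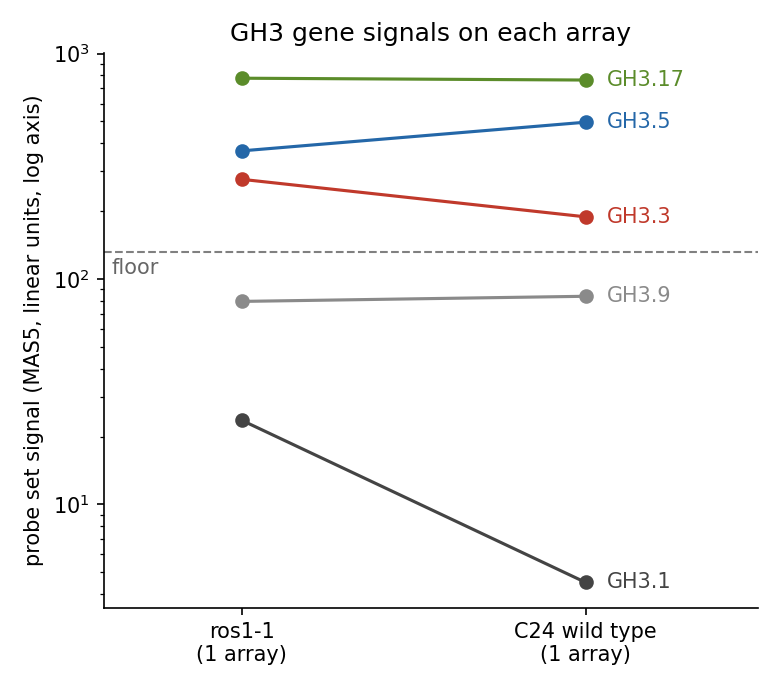
Probe set signals of the 5 GH3 genes with a single-gene probe set, on a log axis, in ros1-1 (left) and C24 wild type (right), with 1 array per genotype and a line joining the values of each gene. The dashed line is the floor of 132. GH3.3 is at 277 and 189, GH3.5 at 370 and 496, GH3.17 at 777 and 763, and GH3.9 and GH3.1 lie under the floor on both arrays.

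Signals under the 40th percentile of all values of both arrays, 132, were treated as too low to compare, and this limit is called the floor. GH3.3 was 2.09 times the floor in ros1-1 and 1.43 times the floor in wild type. GH3.5 was 2.80 times the floor in ros1-1 and 3.75 times the floor in wild type. Both genes were therefore above the floor on both arrays, with GH3.3 in wild type the value closest to it.

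The rank of each gene among the 22746 probe sets of an array moved in the same way as its signal. GH3.3 was the 9953rd brightest in ros1-1 and the 12049th brightest in wild type, which placed it above 56.2% and 47.0% of probe sets. GH3.5 was the 8344th brightest in ros1-1 and the 6747th brightest in wild type, above 63.3% and 70.3% of probe sets. Both transcripts thus gave signals in the middle of the range, and the order of the pair was the same on both arrays.

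GH3.5 gave the brighter signal of the pair throughout, by 1.34-fold in ros1-1 and by 2.63-fold in wild type. Signals of different probe sets depend on their probes, so these ratios do not compare transcript amounts. In the change of this ratio between arrays, a factor constant for each probe set cancels. The log2 ratio of GH3.3 exceeded that of GH3.5 by 0.98, a 1.97-fold shift of the pair relative to each other. The spread of such differences over other pairs of probe sets was not computed, and the shares given below for single ratios do not apply to them. A change of scale of a whole array also cancels in this difference, whereas an added background does not. With an offset equal to the floor added to every signal, the difference was 0.67.

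These differences were moderate beside those of other transcripts. Of 14126 probe sets that reached the floor on at least 1 array, 0.205% were higher in ros1-1 by 2-fold or more and 0.241% were lower by as much, and 0 of the 2 GH3 genes were among them. At 1.3-fold, a limit set with the values of both genes known, 6.19% of probe sets were higher and 7.48% lower, and GH3.3 was among the higher and GH3.5 among the lower. With an offset equal to the floor added to both signals in place of the floor, the log2 ratios were 0.35 for GH3.3 and -0.32 for GH3.5, and neither gene reached 1.3-fold (0.38 in log2). With the floor at the 60th percentile GH3.3 had no value. A ratio at least as high as that of GH3.3 was found in 320 probe sets, or 2.27%. A ratio at least as low as that of GH3.5 was found in 802 probe sets, or 5.68%.

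Ratios spread more among dim probe sets than among bright ones, so each gene was also set beside the 1000 probe sets nearest to it in mean signal. The SD of their log2 ratios was 0.32 around GH3.3 and 0.27 around GH3.5. In these sets, 8.30% had a ratio at least as far from 0 as GH3.3 in either direction, and 10.3% one at least as far as GH3.5. Counted only in the direction of the gene, these were 41 of 1000 for GH3.3 and 57 of 1000 for GH3.5. The shares of all measured probe sets counted that way were 2.27% and 5.68%. Matching on signal thus made little difference for GH3.5, whereas for GH3.3 it raised the share to 4.1%. Both genes thus lay toward the edges of the spread at their own signal, and neither stood clear of it.

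**Figure D2:**
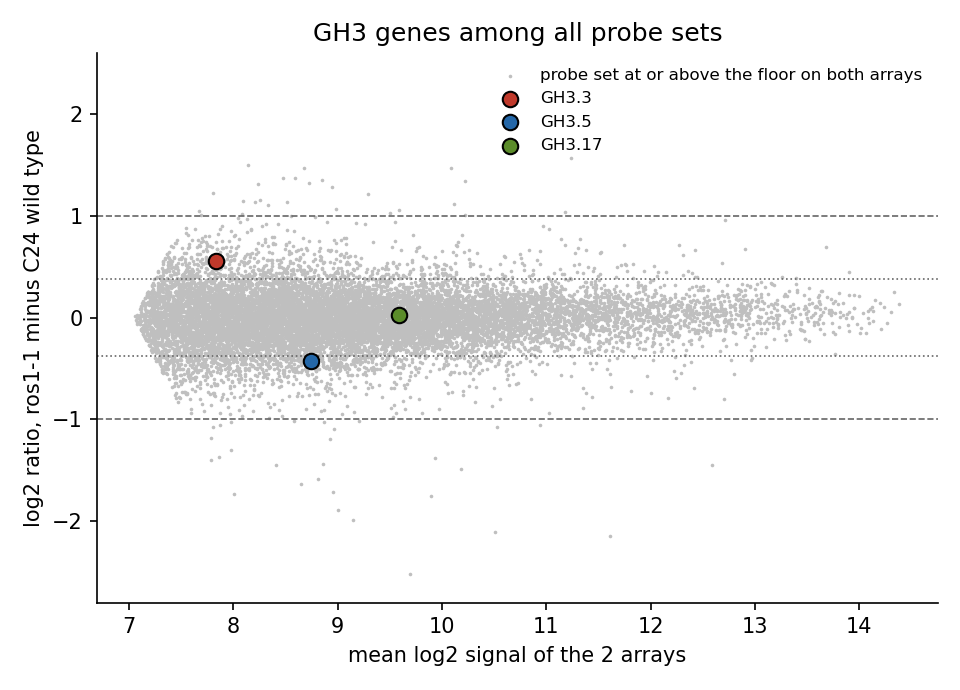
Log2 ratio of ros1-1 to C24 wild type against the mean log2 signal of the 2 arrays, with a grey point for each probe set that reached the floor in both genotypes and coloured points for GH3.3, GH3.5 and GH3.17. Dashed lines mark 2-fold and dotted lines 1.3-fold. GH3.3 (0.55) and GH3.5 (-0.42) sit between the dotted and dashed lines on opposite sides, within the grey cloud, and GH3.17 (0.03) lies in its centre.

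Measures of the array's own error gave a narrower range. In 61 genes with several probe sets, the scatter of single probe sets around their own gene's mean log2 ratio had an SD of 0.19, and the ratios of GH3.3 and GH3.5 were 2.87 and -2.20 times this SD. The 18 probe sets for spiked control transcripts had log2 ratios between -0.25 and 0.26, and both GH3 genes lay outside this range. Neither measure includes differences between plants, RNA extractions or labelling reactions of 1 genotype, and neither was matched to signal. Set against the SD of its 1000 probe sets of like signal, the ratio of GH3.3 was 1.75 times that SD. For GH3.5 it was -1.54 times, so both were smaller on this scale.

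Of the rest of the family, GH3.17 was the one further gene that could be compared. GH3.17, which in Arabidopsis joins IAA preferentially to glutamate, had a signal of 777 in ros1-1 and 763 in wild type, a log2 ratio of 0.03. The log2 ratio of GH3.3 exceeded that of GH3.17 by 0.53, and that of GH3.17 exceeded that of GH3.5 by 0.45. GH3.9 had signals of 79.5 in ros1-1 and 83.8 in wild type, and GH3.1 had signals of 23.6 in ros1-1 and 4.51 in wild type. Both were under the floor on both arrays, and no ratio is given for them. The list held 19 family members, of which 8 had no GH3 name in the gene table and were set aside. Of the 11 named members, 5 had a single-gene probe set and 3 were measured. Of these, 1 (GH3.3) was higher in ros1-1 by 1.3-fold or more and 1 (GH3.5) was lower by as much. Both calls were lost with the offset. Over all measured probe sets the shares at 1.3-fold were 6.19% higher and 7.48% lower. The called genes are those chosen by name, and the limit was set with their values known, so these counts do not describe the family. The named members with no single-gene probe set, which include the close relatives GH3.2, GH3.4 and GH3.6, the jasmonate-conjugating JAR1 and the defence gene PBS3, were not analysed here.

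Outside the GH3 family, 2 of the listed genes of auxin metabolism were measured, and both had log2 ratios closer to 0 than those of GH3.3 and GH3.5. YUC2, a flavin monooxygenase of the last step of IAA synthesis, had signals of 157 in ros1-1 and 158 in wild type, a log2 ratio of -0.01. YUC4, YUC6 and YUC11 were under the floor on both arrays. UGT74D1, a glucosyltransferase that acts on auxins, had signals of 1062 in ros1-1 and 1348 in wild type, and its log2 ratio of -0.34 was the lowest among the measured auxin genes other than GH3.5. UGT84B1, which glucosylates IAA, was under the floor on both arrays.

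Most Aux/IAA proteins repress auxin response factors until auxin triggers their breakdown, and many of the family's genes are themselves induced by auxin. IAA18 had signals of 528 in ros1-1 and 572 in wild type, a log2 ratio of -0.12. IAA29 had a signal of 157 in ros1-1 and 120 in wild type, which is under the floor, so its log2 ratio of 0.25 is a lower bound. The deposited IAA29 signals differed by 1.31-fold. IAA20, IAA30, IAA31, IAA33 and IAA34 were under the floor on both arrays.

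Across the auxin lists, 194 members were named in the gene table, 18 of them had a single-gene probe set and 7 were measured. Their median log2 ratio was -0.01, which is the value of YUC2, and the median of all measured probe sets was also -0.01. Apart from GH3.3 and GH3.5, 4 of these genes reached the floor in both genotypes, with log2 ratios from -0.34 to 0.03. Of these 4, 0 were higher in ros1-1 by 1.3-fold or more and 0 were lower by as much. Over all measured probe sets the shares were 6.19% and 7.48%, so a count of 0 in 4 genes does not set them apart. The remaining measured auxin gene, IAA29, has only a bound and is not counted either way. The lists of auxin receptors, auxin response factors, auxin transporters and SAUR genes, with 6, 22, 15 and 80 members, had 0 members with a single-gene probe set. The list of salicylate synthesis and response, drawn up because GH3.5 accepts salicylic acid, likewise had 0 of 11. Those genes were not analysed here.

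**Figure D3:**
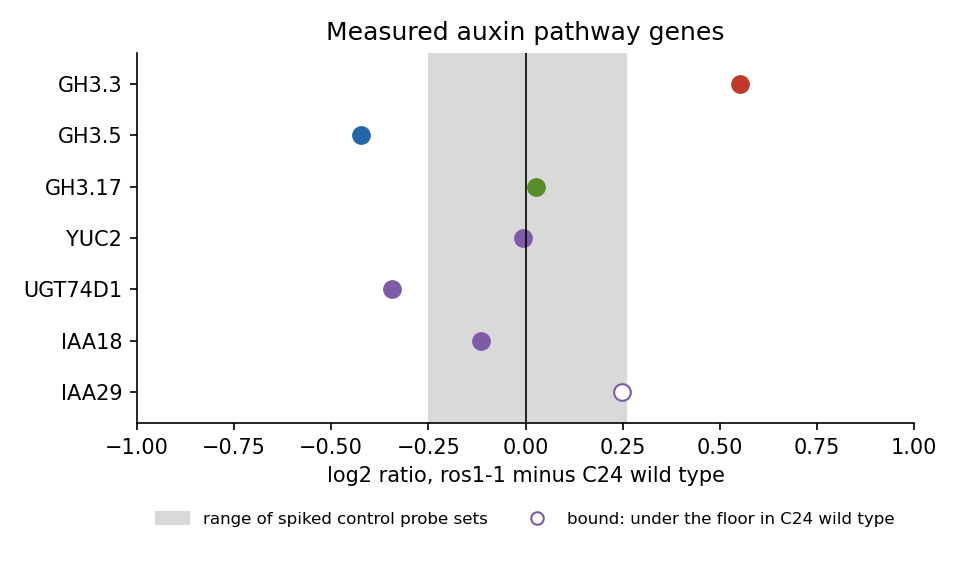
Log2 ratios of ros1-1 to C24 wild type for the 7 measured genes of the auxin lists, 1 array per genotype, with an open circle for a bound and a grey band for the range of the 18 spiked control probe sets (-0.25 to 0.26). GH3.3 at 0.55 is the highest and GH3.5 at -0.42 the lowest, UGT74D1 at -0.34 is also outside the band, and GH3.17, YUC2 and IAA18 lie inside it. IAA29 has only a lower bound, at 0.25, and is not placed against the band.

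Whole seedlings mix tissues, and fewer cells of a type and less RNA per cell cannot be told apart in them. Of 5 green tissue markers, 2 had a single-gene probe set: RCA had a signal of 17658 in ros1-1 and 15226 in wild type, and LHCB4.1 had 16264 in ros1-1 and 18035 in wild type. Of 5 root markers, 3 had one. PYK10 had a signal of 13729 in ros1-1 and 13028 in wild type, EXPA7 had 193 in ros1-1 and 154 in wild type, and EXPA18 had 373 in ros1-1 and 262 in wild type. Both shoot and root markers were thus present on both arrays. The log2 ratios of the green tissue markers were 0.21 for RCA and -0.15 for LHCB4.1, in opposite directions. Those of the root markers were 0.08 for PYK10, 0.33 for EXPA7 and 0.51 for EXPA18. All 3 root markers were in the direction of GH3.3 and opposite to that of GH3.5. The median log2 ratio of all measured probe sets was -0.01, so ratios above 0 were common and 3 genes in 1 direction do not stand out. The log2 ratio of PYK10 lay inside the range of the spiked control probe sets, and the wild-type signal of EXPA7 was close to the floor of 132. The part of these markers in either result was not tested.

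ROS1 acts on DNA methylation at particular loci, so the 10 protein-coding genes on each side of each GH3 gene, in gene order, were also compared. Around GH3.3, 10 of the 20 neighbours had a single-gene probe set and 2 were measured, with log2 ratios of -0.17 for AT2G23120 and -0.13 for AT2G23200, both below that of GH3.3. The immediate neighbour AT2G23160 was under the floor on both arrays. Around GH3.5, 12 of the 20 neighbours had a single-gene probe set and 7 were measured, with log2 ratios between -0.14 and 0.60 and a median of -0.06, all above that of GH3.5. The next gene, AT4G27270, had a log2 ratio of -0.13, and the gene after it, AT4G27280, had signals of 1910 in ros1-1 and 1264 in wild type, a log2 ratio of 0.60. At each locus, 0 measured neighbours were at least 1.3-fold different in the direction of the GH3 gene. Of all measured probe sets, 6.19% were higher and 7.48% lower by as much. Without matching on signal, 2.27% had a ratio as high as that of GH3.3, and 5.68% one as low as that of GH3.5. With 2 and 7 neighbours measured, these counts cannot set either locus apart from others. DNA methylation was not measured.

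**Figure D4:**
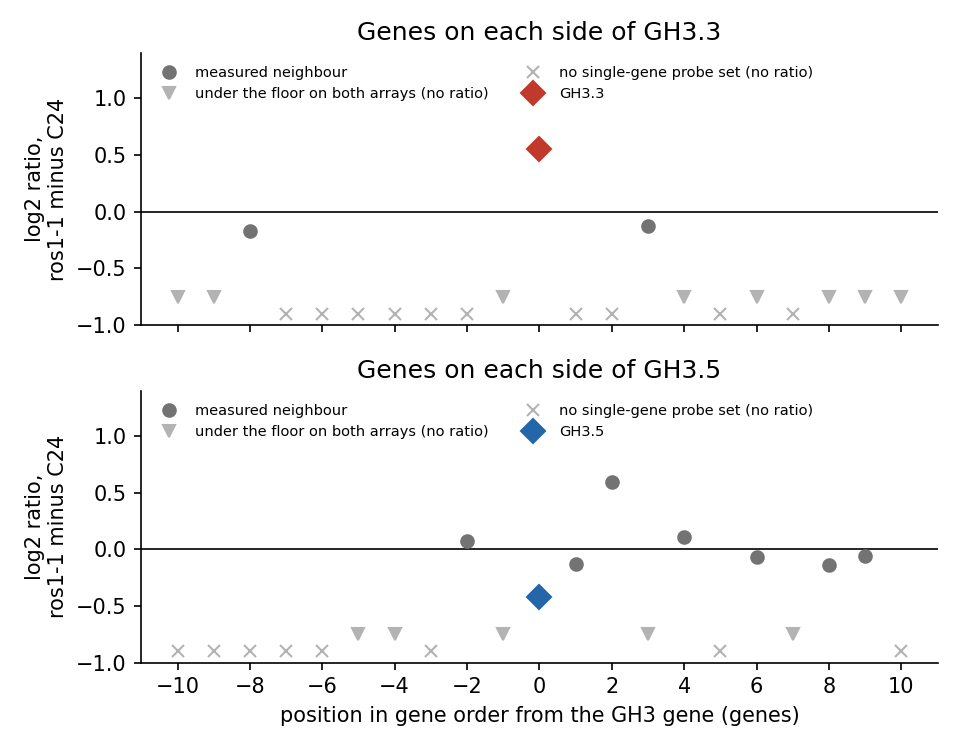
Log2 ratio of ros1-1 to C24 wild type for the 10 protein-coding genes on each side of GH3.3 (top) and GH3.5 (bottom), by position in gene order, with diamonds for the GH3 genes. Triangles and crosses along the bottom mark genes with no ratio. The 2 measured neighbours of GH3.3 are at -0.17 and -0.13, and of the 7 measured neighbours of GH3.5 the highest, AT4G27280, is at 0.60.

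The genes most like each GH3 gene were taken as those nearest to it in the plane of both log2 signals, among 6968 single-gene probe sets of other genes that reached the floor in both genotypes. Nearest to GH3.3 were SAL2, with signals of 273 in ros1-1 and 186 in wild type at a distance of 0.02, then AT1G14240 and AT5G08010, each at a distance of 0.03. Nearest to GH3.5 were CYP71B34, with signals of 363 in ros1-1 and 488 in wild type at a distance of 0.03, then AT5G65490 and RTE1, each at a distance of 0.04. With 2 arrays, such likeness shows only that the signals were alike on both.

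On the whole table, 13169 probe sets reached the floor in both genotypes and 8620 in neither. The median signal was 213 in ros1-1 and 216 in wild type. ROS1 had 0 single-gene probe sets in the annotation used here, so the mutated gene could not be used to check the array labels.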

How the data were processed

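Total RNA of whole seedlings was hybridised as biotin-labelled cRNA, 1 array per genotype, grouped by the titles in the labels. The authors deposited linear signal intensities that the submitters' processing notes credit to MAS5; the version, the scaling target and calls of presence were not given in the sources. With 2% of values trimmed at each end, both arrays had a mean of 500.04. After 64 control probe sets were set aside, 22746 were analysed, of which 13513 had 1 gene, 503 several and 8730 none in the platform's annotation. Names were updated through the TAIR10.1 gene table (13436 matched), used for names and gene order only. Signals under the 40th percentile of both arrays were raised to it before log2, and a probe set was measured when its brighter array reached it. A gene was represented by its brightest probe set. The nearest genes by signal were named by rule. With 1 array per genotype there was no test. Genes, lists and the 1.3-fold limit were chosen with earlier results of these data known, and the neighbouring genes and IAGLU after their values were seen. The precision is limited by the number of arrays. Alternatives were floors at the 25th and 60th percentile, no floor, an offset, median centring, quantile normalization, lowess with a span of 0.3, plain _at probe sets and gene means. The steps were tested on simulated data. Python 3.11.15, pandas 2.3.3 and statsmodels 0.14.6 were used.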

Additional observations from a re-analysis of the deposited data

How the results depend on the processing

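GH3.3 stayed higher in ros1-1 under all 6 alternatives that gave it a value and GH3.5 stayed lower under all 7. Raising the floor to the 60th percentile (a signal of 325) left GH3.3 under it on both arrays, with no value. The log2 ratio of GH3.3 ran from 0.35 to 0.57 and that of GH3.5 from -0.42 to -0.32. Since floors and offsets cannot turn a ratio round, the kept direction shows only that rescaling moved the ratios little. With an offset equal to the floor, which shrinks ratios of dim probe sets by construction, GH3.3 was at 0.35 and GH3.5 at -0.32, so both fell short of 1.3-fold, and their difference was 0.67. The counts beside them depended on low signals. Probe sets at least 2-fold higher and lower numbered 80 and 99 with a 25th-percentile floor, 15 and 19 with a 60th-percentile floor, 1384 and 1251 with no floor, 12 and 20 with the offset, and 11 and 14 among single-gene plain _at probe sets. At 1.3-fold they numbered 1683 and 1754, 400 and 491, 3903 and 3692, 443 and 490, and 457 and 580 in the same order. The 3 rescaling alternatives kept all 4 counts within 1.5 times. The auxin median was -0.23 at the higher floor, where 4 genes were measured. It was -0.01 without GH3.3 and GH3.5, an alternative chosen after seeing the data. These are the highest and the lowest of the measured auxin genes, so leaving out both cannot move the median. No paired analysis was possible because each genotype had 1 array. The number of arrays limits every value, and the wild-type signal of GH3.3 was 1.43 times the floor.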

Other observations

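IAGLU, annotated in the gene table as an indole-3-acetate glucosyltransferase and outside the auxin lists, was looked up after its values were seen. It had signals of 865 in ros1-1 and 937 in wild type, a log2 ratio of -0.12. This lies inside the range of the spiked control probe sets, unlike the log2 ratio of -0.34 of UGT74D1, another glucosyltransferase that acts on auxins.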
